A study of Mus musculus with 16 samples.

Results

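The miR-378 family was followed in small RNA libraries of the mouse myoblast line C2C12, whose cells fuse into multinucleate myotubes in medium low in serum. Its 5 members, miR-378a-3p, miR-378a-5p, miR-378b, miR-378c and miR-378d, were taken by name from the deposited tables, which list 2510 miRNA names in all. All 5 were listed in at least 1 of the 16 libraries. The libraries form 4 groups of 4. Control cells, labelled wild-type, and triple-knockout cells (tKO), which lack the hairpins of miR-1a-1, miR-1a-2 and miR-206, were each sampled in growth medium with 20% fetal bovine serum (GM) and after 3 days in 2% horse serum (DM3). All lines carry the label PAX7 NEG. Each group holds 2 lines, which are control populations 1 and 2 or tKO clones C1 and C2, with 2 biological replicates of each. The 4 libraries of a group are therefore not 4 independent lines, and p-values measure the spread between these libraries.

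A miRNA is cut from a hairpin precursor, and the strand kept from its 5' or 3' arm (5p or 3p) guides Argonaute to messenger RNAs through the seed, bases 2 to 8. miR-378a comes from an intron of Ppargc1b, which encodes the transcriptional coactivator PGC-1beta, and it is known in muscle as a miRNA that increases when myoblasts differentiate. Enzymes can add A or U to the 3' end of a finished miRNA, and a cut shifted by a base at the 5' end changes the seed.

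The mature sequences of 3 members show how the family divides by seed, which is in capitals. They were copied from the RefSeq miRNA table for GRCm38.p6, and each equals the sequence that the deposited tables list under that name.
miR-378b: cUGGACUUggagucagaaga
miR-378c: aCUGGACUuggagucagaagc
miR-378d: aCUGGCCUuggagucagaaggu
miR-378b lies at chr11:88352839-88352858 on the plus strand, miR-378c at chr14:46954905-46954925 on the minus strand, and miR-378d at chr10:126710355-126710376 on the minus strand. miR-378c and miR-378a-3p have the same seed. The seed of miR-378b is shifted by 1 base, and it is the seed that miR-378a-3p has when a read starts 1 base downstream of the mature 5' end. Counted from 1 at the 5' end, miR-378d differs from miR-378c by A6C inside the seed and by C21G near the 3' end. It is also longer, with 22 bases against 21. In GENCODE M21, the Mir378b hairpin (ENSMUSG00000092985.1) overlaps Msi2 on its opposite strand and Mir378c (ENSMUSG00000099036.1) overlaps Samd4 on its opposite strand, both outside exons, and Mir378d (ENSMUSG00000098756.1) overlaps no other gene.

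The libraries held 112792 to 6543570 reads, and the smallest was tKO DM3 line 1 replicate 1. Between 68.0% and 90.8% of the reads matched a miRNA hairpin in the other 15 libraries, against 47.3% in that one. Reads shorter than 18 nt made up 1.88% to 6.49% of the GM libraries and 2.96% to 18.9% of the DM3 libraries, and results that use sequences of 18 to 25 nt alone are given beside those of all lengths. This limit leaves the counts of the members unchanged, as their listed sequences have 20 to 22 bases, and acts only through the other names. As a check of the labels, the deleted miR-206-3p stood at 837 to 1466 CPM (reads scaled to 1e6 reads a library) in control GM and at 19950.5 to 57442 CPM in control DM3, against 0.808 to 15.5 CPM in tKO GM and 0.960 to 70.9 CPM in tKO DM3. miR-1a-3p ranged from 28.5 to 165 CPM in control DM3 and from 0 to 7.36 CPM in tKO DM3. Of the muscle miRNAs that were not deleted, miR-133a-3p averaged 8.87 CPM in growing and 1586 CPM in differentiated control cells, and 3.81 and 345 CPM in tKO cells. Markers of blood cells summed to at most 4.32 CPM, of endothelium to at most 27.9 CPM and of epithelium to at most 34.2 CPM in any library. The hepatocyte marker miR-122-5p ranged from 3.90 to 75.5 CPM in GM and from 0 to 8.96 CPM in DM3. miR-143-3p and miR-145a-5p, markers of smooth muscle and fibroblasts, summed to 22733 to 42400 CPM in control GM and 42715 to 60248 CPM in tKO GM, without overlap. In DM3 they summed to 25221 to 44392 CPM in control and 18574 to 60569 CPM in tKO. The part of these markers in the results was not tested, and in bulk RNA a change in the number of cells of a type and a change in their RNA content cannot be told apart.

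The major member was miR-378a-3p, which rose about 2-fold over 3 days of differentiation in both genotypes. Its hairpin Mir378a (ENSMUSG00000105200.1, GRCm38) lies on chromosome 18 from 61397835 to 61397900 on the minus strand, in an intron of Ppargc1b on the same strand. It also overlaps an exon of Gm25301, a gene of type miRNA on the plus strand. In control GM, miR-378a-3p stood at 6612 and 4562 CPM in replicates 1 and 2 of line 1, and at 4848 and 4545 CPM in those of line 2. In control DM3 the same order gave 12885, 10562, 15667 and 10790 CPM. All 4 differentiated control libraries were above all 4 growing ones. In tKO GM the values were 4917 and 5997 CPM for line 1 and 6292 and 4005 CPM for line 2. In tKO DM3 they were 10936, 17400, 15527 and 11950 CPM. Again no DM3 library fell into the range of GM, and in pairs of the same line and replicate number the DM3 library was 1.95 to 3.23 times as high in control and 2.22 to 2.98 times as high in tKO. By mean CPM, miR-378a-3p was number 40 of 2282 names in control GM and number 41 in tKO GM, and number 20 in control DM3 and number 16 in tKO DM3.

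After TMM scaling, which sets the typical miRNA of each library to the same level, miR-378a-3p was higher in DM3 by a log2 fold change of 0.90 (SE 0.27, 1.87-fold) in control and 1.09 (SE 0.27, 2.13-fold) in tKO. Both changes passed edgeR's quasi-likelihood test, with Benjamini-Hochberg adjusted p of 0.0157 and 0.00743 over 811 names. Scaled to total reads they were 1.28 and 1.40, but there the median of all names also moved, by 0.40 in control and 0.24 in tKO. Over both genotypes, permuting GM and DM3 within each of the 4 lines gave a two-sided exact p of 0.0015, the smallest that 1296 assignments can give, for a difference of 0.99 in log2(TMM-scaled CPM + 1), and DM3 was higher in 8 of 8 pairs of the same line and replicate number. The call in control was lost when any 1 of 9 libraries was left out: line 1 replicates 1 and 2 and line 2 replicate 2 of control GM, line 1 replicate 2 and both replicates of line 2 of control DM3, replicate 1 of both lines of tKO GM, and line 2 replicate 2 of tKO DM3. The log2 fold change in control without 1 of these ran from 0.67 to 0.89 and the adjusted p from 0.0546 to 0.155, and without tKO DM3 line 1 replicate 1 the values were 0.83 in control (adjusted p 0.0197) and 1.27 in tKO (adjusted p 0.00355). With no filter on low counts the values were 0.68 and 1.00 and neither call held (adjusted p 0.405 and 0.194), and with the 2 replicates of each line summed they were 0.95 and 1.35 (adjusted p 0.143 and 0.0523). Other settings gave larger changes that passed. With reads that match the hairpin they were 1.41 and 1.303 (adjusted p 2.59e-05 and 7.21e-05), and with a stricter filter 1.08 and 1.19. With sequences of 18 to 25 nt they were 1.19 and 1.33 (adjusted p 0.000380 and 0.000205, median of all names -0.16 and -0.01), and with sequences without mismatch 1.16 and 1.29. Both of these limits leave the counts of miR-378a-3p unchanged. They act only through the other names, which set the scaling and the number of names tested (497 and 486).

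The deletion of miR-206 and miR-1a left no detectable difference in miR-378a-3p. The log2 fold change of tKO against control was -0.01 (SE 0.26) in GM and 0.18 (SE 0.26) in DM3, with edgeR adjusted p of 0.995 and 0.836. The 2 differentiation effects differed by 0.19 (SE 0.37, adjusted p 0.948). The sign in GM turned with the scaling, to 0.04 for total reads (median of all names 0.24, against 0.13 after TMM), so no direction is given for it. The groups overlapped in both media.

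**Figure D1:**
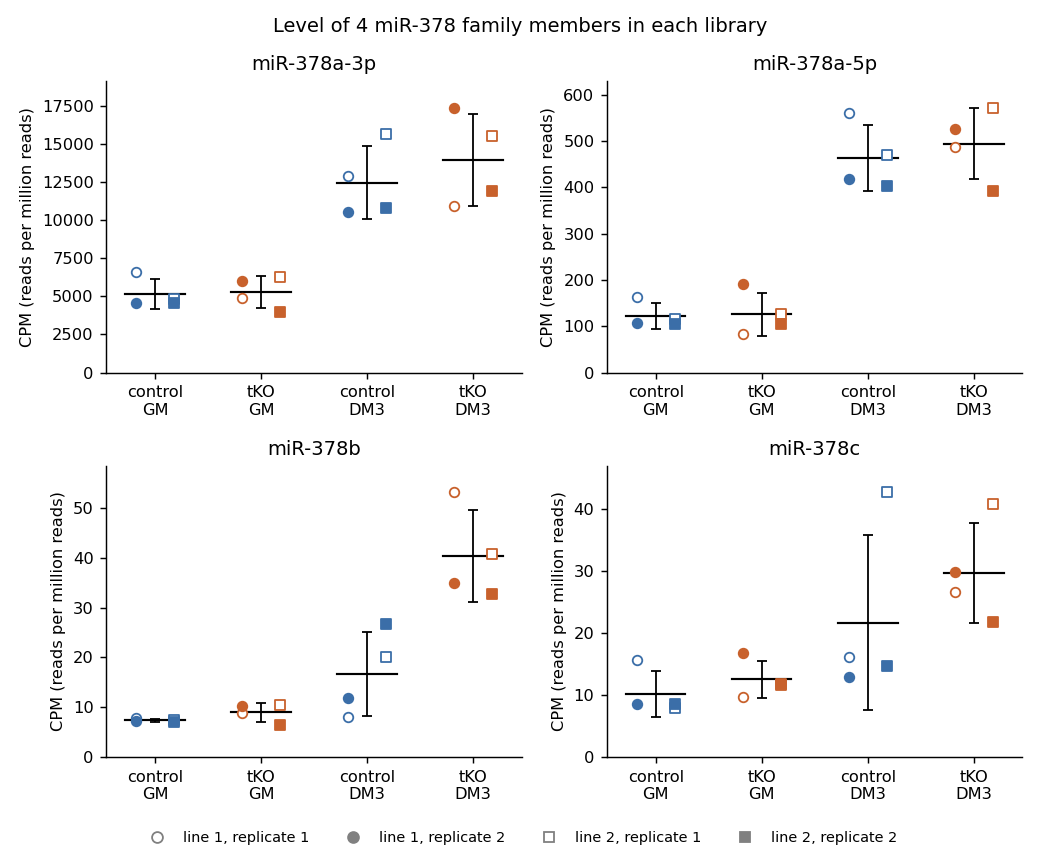
Level of miR-378a-3p, miR-378a-5p, miR-378b and miR-378c in CPM (reads scaled to 1e6 reads a library, linear axis from 0) in each of the 16 libraries, by group. Points are libraries (circles line 1, squares line 2, open replicate 1, filled replicate 2), bars are the mean and the error bars the SD of 4 libraries. For miR-378a-3p and miR-378a-5p all DM3 libraries lie above all GM libraries.

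miR-378a-5p, the strand from the other arm of the same hairpin, rose about 3-fold in both genotypes. Its level in control GM was 164 and 106 CPM in replicates 1 and 2 of line 1 and 115 and 104 CPM in those of line 2, and in control DM3 it was 561, 418, 470 and 404 CPM. In tKO GM it was 83.2 and 191 CPM for line 1 and 125 and 105 CPM for line 2, and in tKO DM3 488, 526, 573 and 392 CPM. In both genotypes the lowest DM3 library was above 2 times the highest GM library. miR-378a-5p rose by a log2 fold change of 1.53 (SE 0.29, 2.90-fold) in control and 1.71 (SE 0.29, 3.27-fold) in tKO, with edgeR adjusted p of 0.000697 and 0.000680. Between tKO and control it differed by -0.06 (SE 0.29) in GM and 0.12 (SE 0.29) in DM3, and neither passed the test (adjusted p 0.992 and 0.896). The call in control was lost with no filter on low counts (1.31, adjusted p 0.0738) and in replicate number 1 alone (1.3, adjusted p 0.0914). The sign in GM turned with total-read scaling, at 0.05, where the median of all names also moved, from 0.13 after TMM to 0.24. No direction is given for it.

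The 5p strand remained the minor one, but its share of the reads of both arms was higher in DM3. In control GM the share was 2.42% and 2.28% in replicates 1 and 2 of line 1 and 2.31% and 2.24% in those of line 2, and in control DM3 4.17%, 3.80%, 2.91% and 3.61%. In tKO GM it was 1.66% and 3.09% for line 1 and 1.95% and 2.55% for line 2, and in tKO DM3 4.27%, 2.93%, 3.56% and 3.18%. The Wilson 95% interval, which covers counting error only, was widest in the smallest library, from 3.30% to 5.52%. The control groups did not overlap, and the tKO groups did. The mean share was 2.31% ± 0.0765 (SD, n = 4) in control GM and 3.62% ± 0.529 (SD, n = 4) in control DM3 (exact permutation p = 0.0286, the smallest that 70 assignments can give, adjusted p = 0.143 over the 5 tests of this share). In tKO it was 2.32% ± 0.636 (SD, n = 4) in GM and 3.48% ± 0.582 (SD, n = 4) in DM3 (exact permutation p = 0.0571, adjusted p = 0.143). The exact test in control did not pass 0.05 when any 1 of the 4 control GM libraries was left out (1.29 to 1.34 percentage points, p = 0.0571), and that in tKO reached p = 0.0286 without tKO GM line 1 replicate 2 (1.43 points). The tKO difference was 2.10 points within replicate number 1 and 0.235 within number 2. Counted over whole reads of both arms, the share in tKO was 3.13% ± 0.815 (SD, n = 4) in GM and 3.97% ± 0.530 (SD, n = 4) in DM3 (exact permutation p = 0.200), and the control difference was 1.16 points (exact permutation p = 0.0571). Taken over both genotypes the share was 1.24 percentage points higher in DM3, in 7 of 8 pairs, with an exact permutation p of 0.00309 within lines. Adjusted over the 19 measures compared this way it was 0.00533. Shares did not differ detectably between tKO and control (exact permutation p = 1 in GM and 0.800 in DM3), nor did the 2 differentiation effects (exact permutation p = 0.914). These means cover opposite values by replicate number. In GM, tKO minus control was -0.558 points within number 1 and 0.560 within number 2, with both tKO libraries below both controls in the former and above both in the latter. The 2 differentiation effects differed by 0.930 points within number 1 and by -1.21 within number 2.

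miR-378b and miR-378c were listed at far lower levels. miR-378b in control GM stood at 7.81, 7.25, 7.38 and 7.03 CPM (line 1 replicates 1 and 2, then line 2), and in control DM3 at 8.07, 11.9, 20.1 and 26.7 CPM. In tKO GM it stood at 8.89, 10.2, 10.5 and 6.34 CPM, and in tKO DM3 at 53.2, 34.9, 40.7 and 32.8 CPM. The tKO DM3 libraries were all above the other 12. Behind these values are 2 to 149 reads a library, and the lowest DM3 value in control rests on 2 reads, under the 3 reads that a library must hold for a level to be told from 0. miR-378b rose in tKO by a log2 fold change of 1.83 (SE 0.41, edgeR adjusted p 0.00373), a call lost in replicate number 1 alone (1.77, adjusted p 0.0861). In control the change was 0.97 (SE 0.41, adjusted p 0.0898), and the difference between genotypes was not shown, at 0.86 (SE 0.58, adjusted p 0.944). tKO against control in DM3 gave 1.05 (SE 0.41), with p 0.0181 before and adjusted p 0.337 after correction over all names. In log2(CPM + 1) this difference was 1.33, with no overlap between the groups (exact permutation p 0.0286, the smallest possible, adjusted p 0.0714 over 20 tests). Without control DM3 line 2 replicate 2 the change in control was 0.35 (adjusted p 0.627), the difference between genotypes 1.51 (p 0.0236, adjusted p 0.487) and tKO against control in DM3 1.70 (adjusted p 0.0815). The change in control passed when scaled to total reads (1.27, adjusted p 0.0231), where the median of all names was 0.40. It passed with sequences of 18 to 25 nt (1.26, adjusted p 0.0137) and with sequences without mismatch (1.25, adjusted p 0.0128). Both of these limits leave the counts of miR-378b unchanged, but with them the median of all names was -0.16 and -0.14, against 0.04 without. The change did not pass by exact permutation of log2(CPM + 1) after correction (0.95, p 0.0286, the smallest possible, adjusted p 0.0714). Over both genotypes, permuting within lines gave 1.18 in log2(TMM-scaled CPM + 1), higher in DM3 in 7 of 8 pairs (exact p 0.00617, adjusted p 0.00838). Where the rows listed as miR-378b-3p and miR-378b-5p, none of which is an exact mature sequence, were added to miR-378b, the values were 1.60 in control (p 0.0139, adjusted p 0.0501) and -0.19 in tKO (adjusted p 0.866), so the change that passed in tKO is that of the listed mature sequence.

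miR-378c, with the seed of miR-378a-3p, stood at 15.6, 8.52, 7.90 and 8.56 CPM in control GM and at 16.1, 12.95, 42.7 and 14.7 CPM in control DM3. In tKO GM the values were 9.69, 16.8, 11.7 and 11.8 CPM and in tKO DM3 26.6, 29.8, 40.7 and 21.8 CPM. The control groups overlapped and the tKO groups did not. The log2 fold changes of DM3 against GM, 0.75 (SE 0.42) in control and 0.99 (SE 0.40) in tKO, did not pass the test (edgeR adjusted p 0.193 and 0.0879). Without control DM3 line 2 replicate 1 the value in control was 0.19 (adjusted p 0.794). The limits to sequences of 18 to 25 nt and to sequences without mismatch leave the counts of miR-378c unchanged. With them the median of all names in control was -0.16 and -0.14, over 497 and 486 names, against 0.04 over 811. In control the change passed with both limits (1.04 and 1.01, adjusted p 0.0486 and 0.0490). In tKO it passed with these as well (1.16 and 1.11, adjusted p 0.0248 and 0.0293), with a stricter filter (1.04, adjusted p 0.0354) and with family rows merged (1.17, adjusted p 0.0371). It also passed with scaling to total reads (1.24, adjusted p 0.0481, median of all names 0.24) and with DESeq2's Wald test (adjusted p 0.0275). It did not pass by exact permutation of log2(CPM + 1) after correction (1.18, p 0.0286, the smallest possible, adjusted p 0.0714). Over both genotypes, permuting within lines gave 0.71 in log2(TMM-scaled CPM + 1), higher in DM3 in 7 of 8 pairs (exact p 0.00926, adjusted p 0.0117). miR-378d was listed with 9 reads in 6 of the 16 libraries and at most 2 in any, which is under the 3 reads that bound a level of 0 (0.458 to 26.6 CPM by library), and it did not enter the edgeR fit. With no filter on low counts its log2 fold changes were 0.09 in control and 0.91 in tKO (p 0.941 and 0.409). With family rows merged they were 1.08 and 1.40 (adjusted p 0.00630 and 0.00179), but nearly all of those counts are reads listed as miR-378d-5p.

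Of the 4 members tested, 2 changed with differentiation in control and 3 in tKO, all upward, where 27.7% and 19.7% of the 811 names changed in either direction. Their median log2 fold change was 0.94 in control and 1.40 in tKO, against 0.04 and -0.01 over all names tested. In control 3 members, and in tKO 4, had every DM3 library above every GM library in CPM, which held for 22.6% and 11.2% of all names. In control miR-378b is among the 3 through the library with 2 reads, at 8.07 CPM against 7.81 CPM in the highest GM library, and after TMM scaling its DM3 and GM libraries overlapped over both genotypes. miR-378c, counted in tKO alone, overlapped over both genotypes after TMM scaling as well, and in the smallest tKO DM3 library it rests on 3 reads. No member changed between tKO and control by edgeR's test, where 1.23% of all names changed in GM and 0.863% in DM3. Before correction 0 members had p under 0.05 in GM and 1, miR-378b, in DM3, and DESeq2 called 0 members as well. For the difference of the 2 differentiation effects, edgeR called 0.0% of names, with 36 names and 0 members at an unadjusted p under 0.05, and DESeq2 called 0 names.

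**Figure D2:**
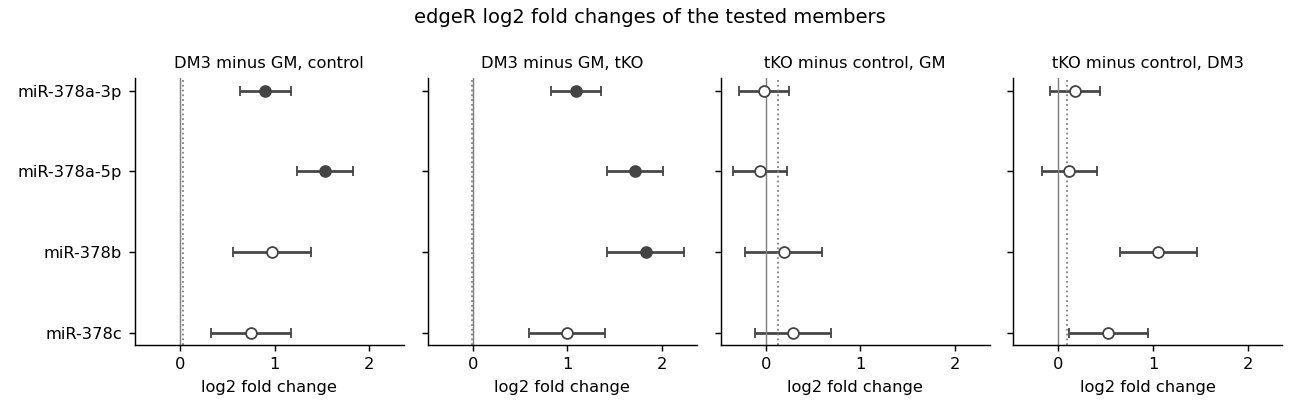
edgeR log2 fold changes (x axis) of the 4 tested members in 4 comparisons, with error bars of 1 SE. Filled points passed an adjusted p of 0.05 over 811 names, and the dotted line marks the median of all names. The 5 filled points are all in the 2 comparisons of DM3 with GM.

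On a list of 17 miRNAs known from muscle differentiation, which served as the context for the family, 16 could be tested. In control 3 were higher in DM3 and 0 lower, and in tKO 4 were higher and 0 lower, where 130 and 92 of all 811 names were higher and 95 and 68 lower. miR-133a-3p, which comes from hairpins next to those of miR-1a, had log2 fold changes of 6.997 and 6.26 in control and tKO. miR-133b-3p, next to miR-206, had 6.67 and 6.49, and miR-675-3p, from the H19 transcript, 5.25 and 5.40. miR-27b-3p changed in tKO (1.35, edgeR adjusted p 0.0204) and in control stood at 0.95 (adjusted p 0.0784). The median over the list was 0.40 in control and 0.26 in tKO, so miR-378a-3p lay above the list's median in both and far under its 3 leading miRNAs.

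The 5 names most like miR-378a-3p over the 16 libraries, by Pearson's r in log2(TMM-scaled CPM + 1) among 247 other names with at least 100 CPM on average, were miR-378d-5p (r = 0.995), miR-378-3p (0.968), miR-378a-5p (0.914), miR-1981-3p (0.905) and miR-378-5p (0.899). All r are over the same libraries, which differ in medium and depth. 4 of the 5 names hold reads of the same hairpin. miR-1981-3p averaged 87.1 CPM in control GM, 91.6 in tKO GM, 320 in control DM3 and 320 in tKO DM3.

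The names miR-378d-5p and miR-378-3p led to the reads behind the rows. In these tables a member's name covers only its exact mature sequence and the same sequence with 1 or 2 added 3' bases. Adding the listed tail back to each sequence gave whole reads for all 13161 read sequences under the 13 family names (tolerance 1e-06). The most abundant read of the family was not the 21-base mature miR-378a-3p but a 22-base read that carries the next base of the Mir378a hairpin. In every library the tables placed 50% of this read under miR-378a-3p, as a mature sequence with an added C, and 50% under miR-378d-5p, as a sequence with a mismatch. Between 1120 and 52953 reads a library were listed as miR-378d-5p, and at least 99.94% of them in each library carried a mismatch, while reads matching the Mir378d hairpin itself numbered 0 to 15 a library. A listed miR-378c sequence can also be a miR-378a-3p read trimmed by 1 base with 1 base added, and a listed miR-378b sequence the same with a start 1 base downstream. For these the 2 sources cannot be told apart.

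Counted as whole reads of the Mir378a hairpin, the 3p arm amounted to 8671 to 14258 CPM in GM and 23938 to 39708 CPM in DM3. The edgeR log2 fold changes of these counts were 0.94 in control (adjusted p 0.0126) and 1.23 in tKO (adjusted p 0.00331). The form of these reads differed between GM and DM3 in 3 ways, described next with exact permutation tests within lines. Their p was adjusted over 19 measures. In each genotype alone, no measure of read form passed the correction over 60 tests, where the lowest adjusted p was 0.107.

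First, more reads started 1 base downstream of the mature 5' end, and so carried the seed printed for miR-378b. The share in control GM was 5.46% and 6.41% in replicates 1 and 2 of line 1 and 6.11% and 6.35% in those of line 2, and in control DM3 6.75%, 11.1%, 8.38% and 11.99%. In tKO GM it was 5.80%, 6.30%, 5.80% and 6.55%, and in tKO DM3 10.7%, 12.1%, 9.12% and 11.5%. No DM3 library fell into the range of the GM libraries. The widest Wilson 95% interval, in the smallest library, was 9.63% to 11.96%. The share rose from 6.10% ± 0.376 (SD, n = 8) to 10.2% ± 1.93 (SD, n = 8), with an exact permutation p of 0.0015 and an adjusted p of 0.00367. Within replicate number 1 the difference was 2.95 percentage points and within replicate number 2 it was 5.28. In control alone it was 3.48 points and in tKO alone 4.75. In CPM these shifted reads averaged 669 in control GM and 2582 in control DM3, and 680 in tKO GM and 3414 in tKO DM3, which is 3.86 and 5.02 times as many. The reads listed as miR-378b, at 6.34 to 53.2 CPM, are counted among these, as their sequence also fits a shifted and trimmed miR-378a-3p read with 1 added base.

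Second, the 22-base form gained on the 21-base mature form. The 22-base read made up 41.7%, 36.6%, 40.4% and 37.6% of the 3p arm in control GM (line 1 replicates 1 and 2, then line 2) and 45.2%, 51.9%, 44.8% and 47.5% in control DM3. In tKO GM it made up 41.4%, 36.4%, 41.8% and 33.3%, and in tKO DM3 47.9%, 46.9%, 44.0% and 45.6%. All DM3 libraries were above all GM libraries, with a rise of 8.09 percentage points on average (exact permutation p = 0.0015, adjusted p = 0.00367). The rise was 8.28 points in control and 7.90 in tKO. The mature 21-base read fell from 16.2% ± 1.67 (SD, n = 8) to 10.7% ± 2.39 (SD, n = 8), lower in 7 of 8 pairs (exact permutation p = 0.00309, adjusted p = 0.00533). Its difference was -3.89 points in control, where the groups overlapped, and -7.04 in tKO (exact permutation p = 0.0571 and 0.0286, adjusted p = 0.156 and 0.107 over 60 tests). The sizes of the 22-base and the 21-base change went with the replicate number. The 22-base form differed by 4.18 percentage points within replicate number 1 and by 11.99 within number 2, and the 21-base form by -2.39 and -8.54. Read forms also split by replicate number within a medium. In GM the 22-base share was 40.4% to 41.8% in the 4 libraries numbered 1 and 33.3% to 37.6% in those numbered 2. In DM3 the 21-base share was 12.5% to 13.96% and 7.87% to 8.98%. Permuting within both line and replicate number gave an exact p of 0.0078, the smallest possible, for the 22-base form and 0.0156 for the 21-base form. The libraries of replicate 2 were the larger ones in each group, and the part of depth, or of anything else the number may stand for, was not tested.

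Last, tails changed with the end they were added to. In the deposited listing, the tailed share of miR-378a-3p was 59.8% to 71.8% in GM and 71.0% to 82.0% in DM3, higher in DM3 in 7 of 8 pairs and by 10.8 percentage points on average (exact permutation p = 0.00309, adjusted p = 0.00533). The difference was 4.48 percentage points within replicate number 1 and 17.2 within number 2, and in control alone 1.80 and 14.4. In each genotype alone it did not pass the correction over 8 tests, at 8.08 percentage points in control (exact permutation p = 0.0571, adjusted p = 0.152) and 13.6 in tKO (exact permutation p = 0.0286, adjusted p = 0.114). The listed tails that are C, which the hairpin encodes, were 36.05% to 44.96% of the reads in GM and 47.01% to 59.6% in DM3. Without C, the tailed share of the same listed rows was 25.2% ± 1.26 (SD, n = 4) in control GM and 23.1% ± 2.26 (SD, n = 4) in control DM3, and 23.1% ± 1.099 (SD, n = 4) in tKO GM and 25.2% ± 3.88 (SD, n = 4) in tKO DM3. That was higher in DM3 in 4 of 8 pairs, with a difference of 0.0090 percentage points over both genotypes (exact permutation p = 0.995). Another count changed both the reads and the tails, taking all whole reads of the 3p arm and only the bases beyond those of the hairpin. The tailed share was then 31.1% to 37.3% in GM and 25.8% to 33.3% in DM3, lower in DM3 in 7 of 8 pairs and by 4.48 percentage points on average (exact permutation p = 0.0108, adjusted p = 0.0121). The difference was -6.36 points in control and -2.60 in tKO, where the groups overlapped (exact permutation p = 0.0286 and 0.257, adjusted p = 0.107 and 0.482 over 60 tests).

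**Figure D3:**
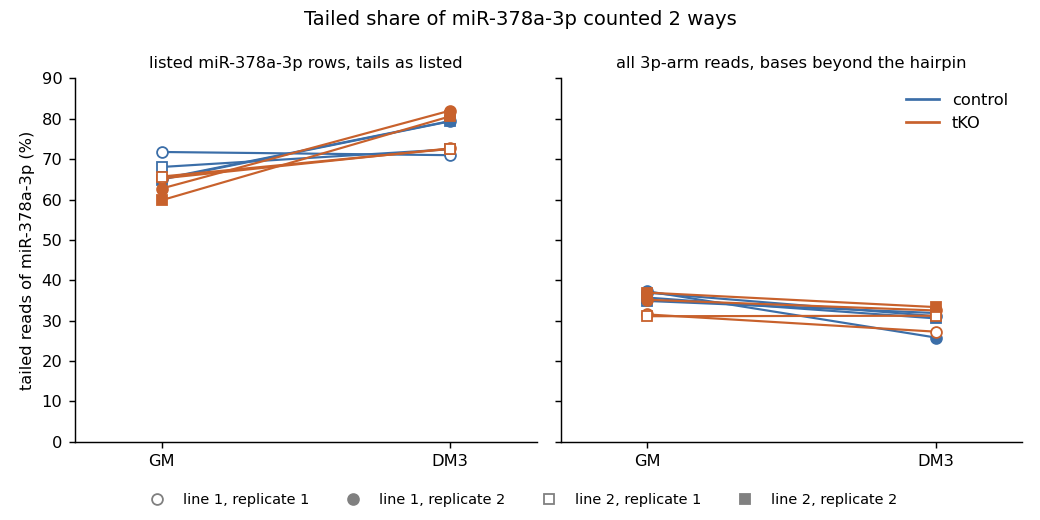
Tailed reads of miR-378a-3p in percent (y axis from 0) in GM and DM3, joined for the same line and replicate number, for the listed miR-378a-3p rows with tails as listed (left) and for all whole reads of the 3p arm with only bases that the Mir378a hairpin does not encode (right). The panels differ in the reads counted as well as in the tails. 7 of 8 lines go up on the left and 7 of 8 go down on the right.

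Of the bases beyond the hairpin, a single A was found on 11.99% ± 0.465 (SD, n = 8) of 3p reads in GM and on 9.64% ± 0.976 (SD, n = 8) in DM3, lower in 8 of 8 pairs (exact permutation p = 0.0015, adjusted p = 0.00367). A single U was found on 17.8% ± 1.58 (SD, n = 8) and 17.9% ± 2.14 (SD, n = 8), with no detectable difference (exact permutation p = 0.897) and DM3 higher in 6 of 8 pairs. By genotype it was -0.91 points in control, with 2 of 4 pairs higher, and 1.14 in tKO, with 4 of 4 higher (exact permutation p = 0.600 and 0.514). By the end that carried it, 1 U changed in opposite directions, here as a share of the reads with that end and not of the whole arm. Among reads that end at the mature 21st base before any tail, 36.9% ± 3.43 (SD, n = 8) carried 1 U in GM and 49.0% ± 5.29 (SD, n = 8) in DM3, higher in 8 of 8 pairs. Among reads that end at the 22nd base, the share with 1 U was 3.53% to 9.43% in GM and 1.79% to 3.06% in DM3, lower in 8 of 8 pairs and with no overlap. Both differences had an exact permutation p of 0.0015 and an adjusted p of 0.00367. They were 6.95 and -1.89 percentage points within replicate number 1 and 17.3 and -5.54 within number 2. In control alone they were 8.63 and -3.24 points, and in tKO alone 15.6 and -4.20.

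**Figure D4:**
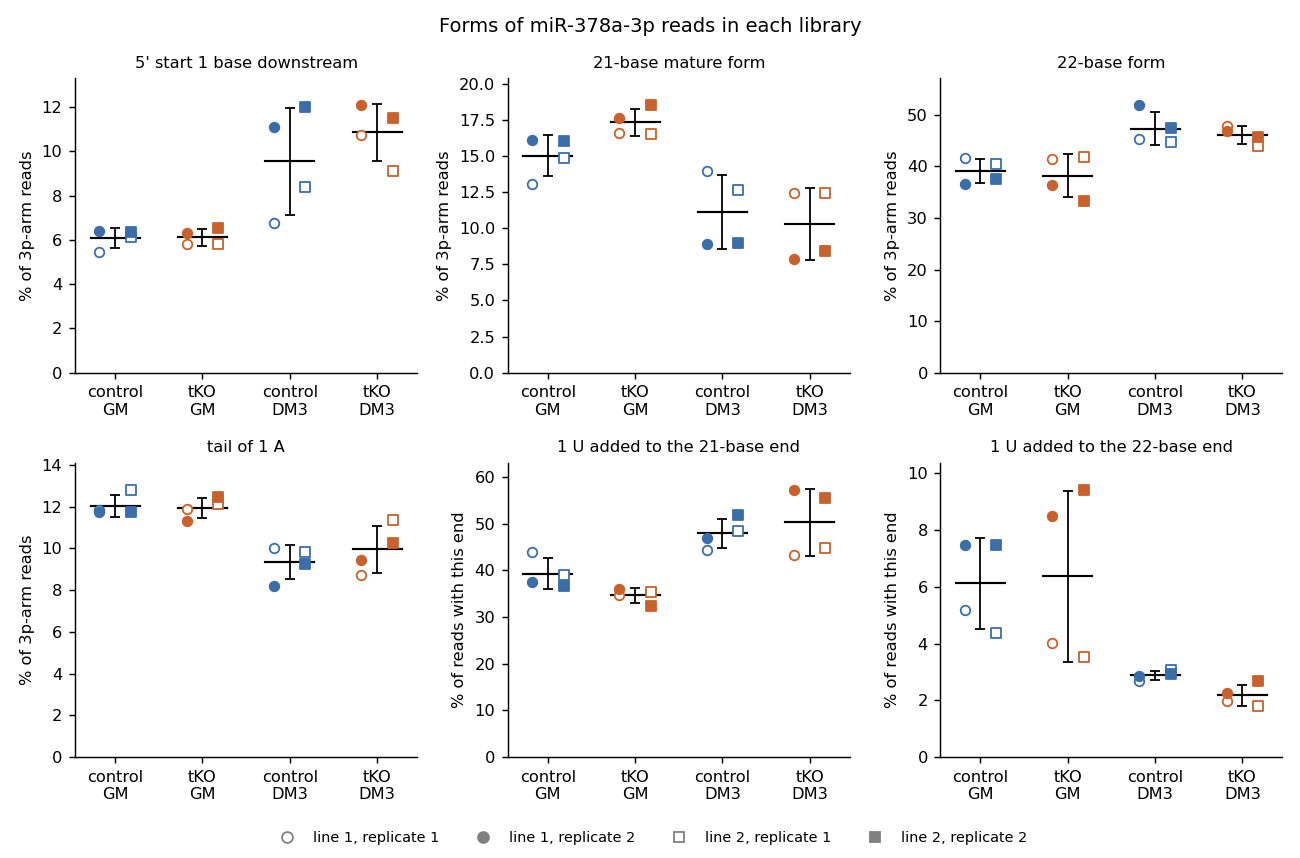
Share of 6 forms of miR-378a-3p reads in percent (linear axes from 0) in each library, by group: starts 1 base downstream, the 21-base and the 22-base form and tails of 1 A as a share of the 3p arm, and 1 added U as a share of the reads that end at base 21 or 22. Points are libraries, with the same symbols as in the plot of levels, and bars are the mean and SD of 4 libraries. Starts 1 base downstream, the 22-base form and 1 U on the 21-base end are higher in DM3, and the other 3 forms are lower.

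Between tKO and control no form passed the corrected test. In GM the 21-base form made up 17.4% ± 0.945 (SD, n = 4) in tKO and 15.0% ± 1.42 (SD, n = 4) in control, and 1 U on its end 34.6% ± 1.52 (SD, n = 4) and 39.2% ± 3.28 (SD, n = 4). In DM3 the share of 1 U on the 22-base end was 2.17% ± 0.380 (SD, n = 4) in tKO and 2.89% ± 0.157 (SD, n = 4) in control. In these 3 cases the groups did not overlap, but with an exact permutation p of 0.0286, the smallest possible, the adjusted p over 60 tests was 0.107. Some comparisons of tKO with control had opposite signs by replicate number. For 1 U on the 22-base end in GM, tKO minus control was -0.990 points within number 1 and 1.49 within number 2, with both tKO libraries below both controls and then above both. In DM3, tails beyond the hairpin gave -2.25 and 4.75 points, 1 U on the 21-base end -2.26 and 6.97, and the 22-base form 0.935 and -3.39. The 22-base form in GM gave 0.554 and -2.24. Apart from the 3 cases named first, the groups overlapped in all comparisons of tKO with control among the 12 measures of read form. Tails of miR-378a-5p were fewer in DM3. As listed, 7.68% ± 1.34 (SD, n = 8) of its reads were tailed in GM and 4.41% ± 1.73 (SD, n = 8) in DM3 (exact permutation p = 0.00617, adjusted p = 0.00838), lower in 7 of 8 pairs. By genotype the difference was -3.38 points in control and -3.16 in tKO and did not pass the correction over 8 tests (exact permutation p = 0.0286 and 0.0857, adjusted p = 0.114 and 0.171). Over all whole 5p reads, with only bases beyond the hairpin, 22.7% ± 3.35 (SD, n = 8) were tailed in GM and 18.9% ± 1.59 (SD, n = 8) in DM3 (exact permutation p = 0.0170, adjusted p = 0.0179). There the difference was -6.31 points in control and -1.19 in tKO (exact permutation p = 0.0286 and 0.429, adjusted p = 0.107 and 0.643 over 60 tests).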

How the data were processed

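Small RNA libraries were made from total RNA. Cutadapt 1.15, STAR 2.5.4 and the build mm10 are named in the submitters' processing notes. The authors annotated reads with unitas, per the file names; its version and miRBase release are not given in the sources used here. The deposited values are expected counts, with fractions where 1 read was divided among several rows, and not normalized. Here expected counts were summed by name after 228 of the 2510 names were merged into their mature name, which left 2282; rows of the miR-378 family were not merged. Sums were rounded for edgeR 4.0.16 (filterByExpr with a minimum count of 10, TMM, robust quasi-likelihood test on all 16 libraries, R 4.3.3), which was tested on simulated data. DESeq2 1.42.0 was an alternative. Shares were compared by two-sided exact permutation of means. Read forms needed at least 17 hairpin-encoded bases, at most 3 tail bases and a start within 2 bases. The named miRNAs are the members, the 5 most like miR-378a-3p, miR-206-3p and miR-1a-3p as label checks, and those of a muscle list of 17 that passed the test. Members and lists were chosen with earlier results of these data known, and the read-level measures and tests over both genotypes were added after the data were seen. GM and DM3 of a line number are the same cell line by their labels. Deviations of such pairs from their group means correlated by 0.109 on average (16 pairs, lowest -0.172). Deviations sum to 0 within a group, so the -0.101 for different lines (16 pairs) nearly mirrors this and is no separate comparison. A block for the line changed no call of miR-378a-3p. The total per library was 112792 to 6543570 reads.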

Additional observations from a re-analysis of the deposited data

Results flagged for a closer look

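Single libraries stood apart from the other 3 of their group, by the size of the gap to the nearest library, in 6 of 80 groups of values examined, and chance gives about 1 in 20. Control GM line 1 replicate 1 was high in miR-378a-3p (6612 CPM), in all 3p reads of the hairpin (14258 CPM) and in miR-378c (15.6 CPM). Control DM3 line 2 replicate 1 was high in miR-378c (42.7 CPM, from 17 reads). The smallest library, tKO DM3 line 1 replicate 1, was high in the 5p share of all reads of both arms (4.76%). Control GM line 2 replicate 1 was high in tails of 1 A (12.8%).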

How the results depend on the processing

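Of the settings tried, none turned the direction of the differentiation change of miR-378a-3p or miR-378a-5p. For miR-378a-3p in control the call was lost with no filter (0.68), with replicate number 1 (0.76) or 2 (0.99) alone and with the replicates of a line summed (0.95), and leaving out 1 library gave 0.67 to 0.93. In tKO the same settings gave 1.00, 0.80, 1.52 and 1.35, none past the test. The labels give the replicate number no shared batch or day. Deviations of same-numbered libraries from their group means correlated by 0.0915 on average over all names (48 pairs, lowest -0.408). The -0.0865 for different numbers (48 pairs) nearly mirrors this, as deviations sum to 0 within a group, and is no separate comparison. The same-numbered pairs were not all above 0.1, so the tests of miRNA levels were not paired by number, although miR-378a-3p read forms split by it. The counts of pairs, the paired folds and the test of the 2 differentiation effects on the arm share match libraries by their labels alone. With a replicate block the values were 0.91 (adjusted p 0.0129) and 1.12 (adjusted p 0.00551). With the block, the arm share in control (1.31 points) and the listed tails in tKO (13.6 points) had an exact permutation p of 0.0556. That is the smallest it allows, so the blocked test could not pass 0.05 and decides nothing here. As whole reads, the arm share in control (1.16 points) had an exact permutation p of 0.0571, against 0.0286 as listed. Neither count passed the correction (adjusted p 0.156 and 0.143). The tKO against control change of miR-378a-3p in GM, -0.01, turned positive with 3p members summed (0.0075), DESeq2's size factors (0.013) or Wald test (0.013), names as listed (0.00024), only the 2 groups (0.012), replicate number 1 (0.058), 18 to 25 nt (0.016), no mismatch (0.017), a stricter filter (0.0525), total counts (0.045), log2(CPM + 1) (0.040) or reads matching the hairpin (0.20), and ran from -0.17 to 0.073 without 1 library. That of miR-378a-5p turned with the hairpin match (0.29), replicate number 2 (0.052), the stricter filter (0.0082), total counts (0.051) and log2(CPM + 1) (0.0011), at -0.17 to 0.0033 without 1 library; in DM3 it turned with replicate number 2 (-0.025), at -0.00655 to 0.29 without 1 library. Interactions turned with the hairpin match for miR-378a-3p (-0.10) and miR-378a-5p (-0.21), and for the latter with replicate number 2 (-0.077). Merging family rows turned miR-378b in tKO (-0.19), in DM3 (-0.68) and in the interaction (-1.79), and miR-378c in GM (-0.035); miR-378b in GM turned with replicate number 2 (-0.21) and summed replicates (-0.040). The arm share, tKO against control in GM, was -0.558 and 0.560 points in replicate numbers 1 and 2, -0.000352 with 3p members summed and -0.039 as a log2 ratio. Without 1 library it ran from -0.258 to 0.219, and in DM3 from -0.400 to 0.0456. DM3 against GM gave 2.10 and 0.235 points in tKO by replicate number, and the interaction 0.930 and -1.21; without 1 library these ran from 0.908 to 1.43 and from -0.618 to 0.303, and control from 1.13 to 1.55. Listed tails of miR-378a-3p gave 1.80 and 14.4 points in control, 7.17 and 20.1 in tKO and 4.48 and 17.2 over both by replicate number. A tails alone gave -2.27 in control and -1.44 in tKO, U tails 3.70 in tKO, tails other than C -2.12 and 2.14 (0.0090 over both), and tails beyond the hairpin in all 3p reads -6.36 and -2.60 (-4.48 over both); for miR-378a-5p, tKO against control in DM3 turned to 0.961. By replicate number, the 21-base form gave -2.39 and -8.54, the 22-base form 4.18 and 11.99, and 1 U 6.95 and 17.3 on the 21-base end and -1.89 and -5.54 on the 22-base end. Leaving out 1 library turned small differences of tKO against control: listed 3p tails in DM3 (-0.279 to 2.88), starts 1 base downstream in GM (-0.175 to 0.141), the 22-base form in GM (-2.04 to 0.804) and DM3 (-2.07 to 0.282), the 21-base form in DM3 (-1.57 to 0.106), tails beyond the hairpin in DM3 (-0.0893 to 2.53), 1 U on the 22-base end in GM (-0.771 to 1.19); and the U share over both genotypes (-0.506 to 0.737). The cause was not tested. A higher read minimum left no member but miR-378a-3p for a test of tails. The 3 reads a level needs limit miR-378b and miR-378c in the smallest DM3 libraries.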
